A study of Taeniopygia guttata with 46 samples.

Results

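The genes described here are 100 genes with more RNA in the posterior telencephalon than in the testis of male zebra finches (Taeniopygia guttata) whose telencephalon levels followed air temperature most closely. The members were chosen by 3 values computed from the counts of all 18618 genes. A gene was eligible when its mean level in the telencephalon exceeded that in the testis by 2 to 5 log2 units and was at least 5 CPM in the telencephalon, where CPM is the count scaled to a common library total. Of the 1697 eligible genes, the 100 with the highest Pearson correlation (r) between log2(CPM + 0.5) and temperature over the 24 telencephalon libraries became members, 5.89% of the eligible genes. Because the rule used the telencephalon levels at all temperatures, the increase with temperature is a description here and carries no test of its own.

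The study profiled 2 tissues by RNA sequencing in adult males exposed for 5 h to air of 27, 35 or 43 °C. By the labels, 35 °C is thermoneutral for the species, and the other temperatures are cooler and hotter than that zone. The labels name no strain, genotype or further treatment, and birds at 35 °C serve as the reference. The telencephalon was sampled in 8 birds per temperature and the testis in 7 (27 °C), 8 (35 °C) and 7 (43 °C), all from the same 24 birds, so that 22 birds gave both tissues. Brain regions were cut out by hand from frozen brains, so a library mixes all cell types of the region, and fewer cells of a type cannot be told apart from less RNA per cell.

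The avian telencephalon holds the pallial and striatal circuits for learning, perception and song, and its posterior part includes auditory areas of the pallium. Genes with much more RNA in the telencephalon than in the testis commonly serve neurons and glia, for instance in synapses, ion channels, axon growth and myelin. Outside the thermoneutral zone a bird raises its metabolic rate, in the cold by shivering and in the heat by panting. The deposited tables pair no identifier with a gene name, and 0 of the 18618 identifiers could be matched through the gene table used here. The members therefore carry no function, and marker genes of neurons, glia, blood or germ cells could not be looked up, so the tissue labels were not checked against markers. Members are named by identifier in 4 cases, taken by rule, and otherwise by their rank in r, from 1 to 100.

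Total counts ran from 10201598 to 16862943 per telencephalon library and from 14232073 to 25440619 per testis library. One label conflicts with the others: T142, a 27 °C bird, has a testis sample whose tissue field reads brain while title and source name read testis, and the testis counts were repeated without it. In 3 testis samples (T154, T156 and T157) the paired-end column was deeper than the single-end column, unlike in the others.

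The differences between temperatures were small. The members had r between 0.449 and 0.721 with a median of 0.506. From 27 to 43 °C the group mean of log2(CPM + 0.5) in the telencephalon was higher by a median of 0.22, which is 1.17-fold, and the range over members was 0.10 to 0.83, or 1.07-fold to 1.78-fold. The median over the other eligible genes was 0.00. The SD between birds of the same temperature had a median of 0.142 log2 units over the members. The median member's increase was 1.38 times its own SD. The limit of the list fell in a dense stretch of values. The member at rank 100 had an r of 0.4489, and the next eligible gene, just outside, had 0.4487. Among the eligible genes, 53 had an r at or below the negative of that limit, against the 100 members at or above it. The rule fixed the number of members, genes that vary together are not independent counts, and this difference was not tested. Of all eligible genes, 53.9% had an r above 0.

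No member's difference passed a test across all genes in edgeR, the main fit. At 43 against 27 °C the edgeR adjusted p of the members ran from 0.112 to 0.425, and 3 of the 13254 genes tested were called (0.0226%), none of them members. At 43 against 35 °C the smallest edgeR adjusted p of a member was 0.0769, with 1 gene called among all (0.00754%), and at 27 against 35 °C it was 0.9999, with none called (0%). At an unadjusted p under 0.05 in edgeR, all 100 members were higher at 43 than at 27 °C, 52 were higher at 43 than at 35 °C and 8 were lower at 27 than at 35 °C. Among all genes the matching shares were 5.63%, 4.95% and 1.72%. The rule picked genes for a rise with temperature, which favoured all of these counts. DESeq2 called 10 members at 43 against 27 °C, where it called 0.645% of all genes with an adjusted p, and 3 at 43 against 35 °C, where it called 0.127%. The choice of members favoured the DESeq2 counts as well.

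The member that followed temperature most closely was ENSTGUG00000000403 (r = 0.721). Its telencephalon level had a lowest, median and highest value of 81.6, 87.6 and 97.2 CPM at 27 °C, of 83.1, 98.9 and 107 CPM at 35 °C, and of 90.6, 112 and 129 CPM at 43 °C. The ranges at neighbouring temperatures overlapped, and at 43 °C bird T156, the lowest, lay within the range of 27 °C. The means were 88.6 ± 6.11 CPM at 27 °C, 97.4 ± 7.78 CPM at 35 °C and 111 ± 13.4 CPM at 43 °C (SD, n = 8 each). The edgeR estimate at 43 against 27 °C was 0.33 ± 0.069 log2 units (SE, adjusted p = 0.112). In the testis the lowest, median and highest birds had 2.205, 6.54 and 11.3 CPM at 27 °C, 5.04, 7.66 and 14.8 CPM at 35 °C, and 2.80, 3.09 and 8.34 CPM at 43 °C. There the 43 °C birds were the lowest on average, and all 3 ranges overlapped.

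The next was ENSTGUG00000008733 (r = 0.704), a gene with a narrow spread between birds. Its lowest, median and highest telencephalon levels were 100.9, 111 and 113 CPM at 27 °C, 104, 114 and 121 CPM at 35 °C, and 112, 124 and 137.3 CPM at 43 °C. At 43 °C only T156 (112 CPM) lay within the range of the birds at 27 °C. The edgeR estimate at 43 against 27 °C was 0.20 ± 0.048 log2 units (SE, adjusted p = 0.184). Its testis means lay close together, at 27.4 ± 3.48, 25.1 ± 6.42 and 26.7 ± 6.33 CPM at 27, 35 and 43 °C (SD, n = 7, 8 and 7).

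**Figure D1:**
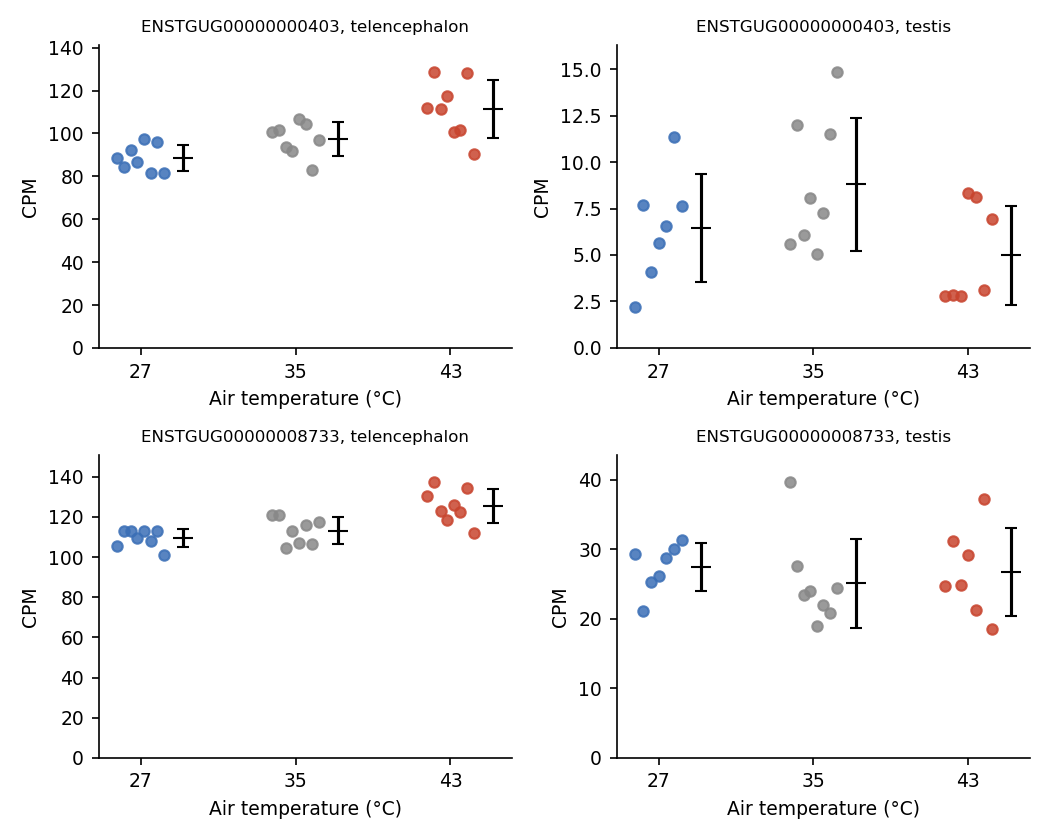
CPM of the 2 members with the highest r in every library (points), by air temperature in °C, in the telencephalon (left) and the testis (right), with group means and SD as black bars. In the telencephalon the birds at 43 °C sit highest on average for both genes, up to 129 and 137.3 CPM, and the ranges of neighbouring temperatures overlap; in the testis the birds at 43 °C are not the highest group for either gene.

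Birds at 27 and 43 °C were fully separated in 2 members of 100, against 0.0377% of all genes tested, a count that the choice of members favoured. One was the member at rank 6, also the second most abundant. It lay at 853 to 992 CPM at 27 °C (median 963), at 855 to 1012 CPM at 35 °C (median 908) and at 994 to 1293 CPM at 43 °C (median 1110). Its mean at 35 °C, 922 ± 64.5 CPM, was below that at 27 °C, 946 ± 46.7 CPM (SD, n = 8 each). The other, at rank 38, ran from 228 to 249.5 CPM at 27 °C, from 213 to 273.5 CPM at 35 °C and from 249.6 to 293 CPM at 43 °C, so that the gap between 27 and 43 °C was far smaller than the spread within either group.

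Over the members, more of the increase lay between 35 and 43 °C than between 27 and 35 °C. The median step was 0.06 log2 units from 27 to 35 °C and 0.13 from 35 to 43 °C, and the upper step was the larger in 75 of 100 members. The position of the 35 °C mean between those at 27 °C (position 0) and 43 °C (position 1) had a median of 0.325, with quartiles of 0.139 and 0.493. It lay below 0 in 10 members, from 0 to 0.5 in 65, from 0.5 to 1 in 23 and above 1 in 2. Genes at the other end of r had similar positions. In the 100 eligible genes with the lowest r, which were lower at 43 than at 27 °C, the position had a median of 0.271 and lay below 0.5 in 76. Over all other eligible genes, whose outer means often lay close together, the median was 0.264, and the position lay below 0.5 in 60.3%. The 35 °C mean lay between the outer temperatures in 88 members and in 74 of the 100 lowest, which a strong linear correlation of either sign favours. These positions describe values the rule used and were not tested. Bird T137 at 35 °C bore on them, since 84 of the 100 members were above their own mean in it. Without it the median position was 0.20, and without T157, the lowest bird at 35 °C, it was 0.39.

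The members at the ends of this range had distinct shapes. The member at rank 54 had the lowest position (-0.44), with 38.6 ± 5.47 CPM at 27 °C, 35.2 ± 4.74 CPM at 35 °C and 47.5 ± 3.81 CPM at 43 °C (SD, n = 8 each). The highest position (1.35) belonged to the member at rank 88, with 10.2 ± 1.41 CPM at 27 °C, 15.7 ± 4.05 CPM at 35 °C and 14.0 ± 3.08 CPM at 43 °C (SD, n = 8 each). The first was a step above 35 °C and the second a step above 27 °C. The remaining difference, between 27 and 35 °C in the first and between 35 and 43 °C in the second, was smaller than the SD between birds. Both members were picked as extremes of the list. Rank 46 had the largest increase, 1.78-fold, from 11.3 ± 3.404 CPM at 27 °C to 19.1 ± 7.68 CPM at 35 °C and 21.2 ± 8.38 CPM at 43 °C (SD, n = 8 each). Its ranges overlapped widely, from 5.78 to 14.96 CPM at 27 °C and from 8.72 to 34.5 CPM at 43 °C, and its SD within temperatures of 0.591 log2 units was the highest of the members. At the other end, rank 72 had the smallest increase, 1.07-fold, from 287 ± 11.4 to 307 ± 15.98 CPM (SD, n = 8 each), and the lowest SD of the members, 0.0744.

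**Figure D2:**
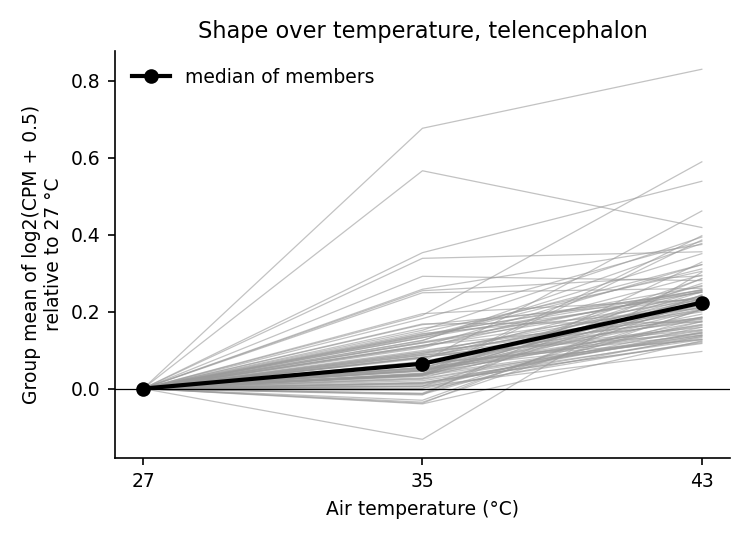
Group means of log2(CPM + 0.5) in the telencephalon relative to 27 °C (vertical axis) against air temperature in °C for the 100 members (grey lines) and their median (black). The median line climbs by 0.06 to 35 °C and reaches 0.22 at 43 °C, and 10 members dip below their 27 °C level at 35 °C.

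Larger increases went with larger spread, as a limit on r requires, and also with lower levels, where the spread was larger. Over the members, the difference between 43 and 27 °C had a Spearman rho of -0.62 with mean CPM and of 0.89 with the SD within temperatures, while its rho with the telencephalon-to-testis ratio was 0.01. Mean telencephalon levels ran from 7.85 to 1174 CPM with a median of 64.0 CPM, and mean testis levels from 0.372 to 155.7 CPM with a median of 6.12 CPM. The 43 members under 50 CPM had a median increase of 0.27 log2 units and a median position of 0.42. The 30 members between 50 and 200 CPM had 0.20 and 0.35. The 27 members over 200 CPM had 0.17 and 0.18, so in the abundant members the increase was smallest and the 35 °C mean lay closest to that at 27 °C, by the medians. The SD within temperatures had medians of 0.205, 0.136 and 0.101 in these classes, from low to high level. The limit on r thus favours larger increases in the scarcer members. The most abundant, at rank 9, went from 1101 ± 47.8 CPM at 27 °C through 1146 ± 103 CPM at 35 °C to 1275 ± 110 CPM at 43 °C (SD, n = 8 each). The median member had 814 counts per library, which gives a counting SD of about 0.0506 log2 units, and the scarcest had a counting SD of about 0.145. Counting error made up a median of 10.3% of the variance within temperatures, and more than 50% of it in 4 members, up to 69.5%.

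A score per bird was the mean deviation of the 100 members from their own means in log2(CPM + 0.5). Because each member was chosen for its rise, the score must rise with temperature even if the members vary independently. In the telencephalon the lowest, median and highest birds had scores of -0.20, -0.10 and -0.05 at 27 °C, of -0.13, -0.02 and 0.11 at 35 °C, and of 0.04, 0.12 and 0.23 at 43 °C. No bird at 43 °C overlapped with those at 27 °C, which the choice of members favours, while the 35 °C group spanned most of the interval between them and reached into both. Between 4 and 34 members were above their own mean in a bird at 27 °C, between 16 and 84 at 35 °C and between 60 and 93 at 43 °C. The members together took 1.41 ± 0.0434% of telencephalon counts at 27 °C, 1.46 ± 0.0671% at 35 °C and 1.61 ± 0.0723% at 43 °C (SD, n = 8 each). At 35 °C, T137 (84 members above their mean) and T157 (16) marked the extremes, so birds at the same temperature differed over much of the list at once.

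**Figure D3:**
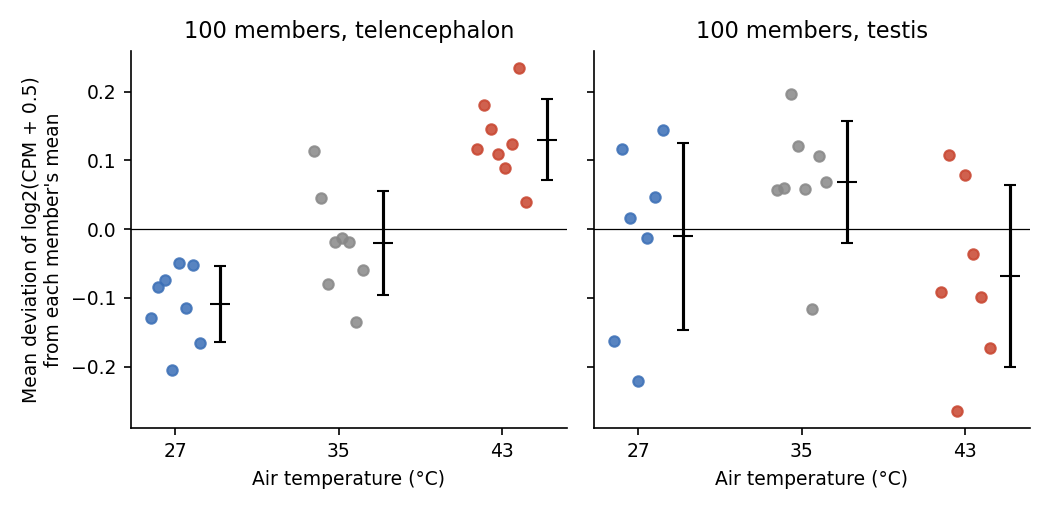
Mean deviation of the 100 members from their own means, in log2(CPM + 0.5), for each library (points) against air temperature in °C, in the telencephalon (left) and the testis (right), with group means and SD as black bars. In the telencephalon all birds at 43 °C lie at 0.04 or higher and all at 27 °C at -0.05 or lower, as the choice of genes favours; in the testis the 3 temperatures overlap.

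The members also varied together among birds kept at the same temperature. After the temperature means were removed, the 4950 pairs of members had a median r of 0.16 over the 24 telencephalon libraries, and 73.9% of the pairs were above 0. Pairs of other eligible genes had a median of 0.02, with 53.4% above 0, and pairs of a member with another eligible gene had 0.03. At similar levels, between 23.1 and 203 CPM, the 867 other eligible genes had a median of 0.03. All pairs share the same libraries and their scaling, and the values are descriptions without a test. The rule ranked genes in these same libraries, which can favour genes that vary together. The difference from the other eligible genes is therefore not independent of the choice. The members' median was 0.17, 0.23 and 0.14 within the groups of 27, 35 and 43 °C, against 0.05, 0.02 and 0.01 for the other eligible genes. Leaving out single birds gave medians from 0.13, without T137, to 0.17.

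The strength of this covariation differed between members. The mean correlation of a member with the other 99 was above 0 in 94 members, had a median of 0.17 and ran from -0.10 (rank 74) to 0.34 (rank 36). Among the other eligible genes, the mean correlation with each other was also above 0 in most (78.3%), at a median of 0.02, and that with the members was above 0 in 57.0%, at a median of 0.03. The 25 members with the highest mean correlation had a median level of 99.7 CPM and a median position of 0.25, against 65.2 CPM and 0.39 in the 25 with the lowest. Their median increases were alike, at 0.21 and 0.23 log2 units. The 100 eligible genes with the lowest r had a median difference between 43 and 27 °C of -0.21 log2 units. Pairs of a member with one of these had a median correlation within temperatures of -0.07, and 40.1% of the pairs were above 0. Among themselves those genes had a median of 0.08.

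**Figure D4:**
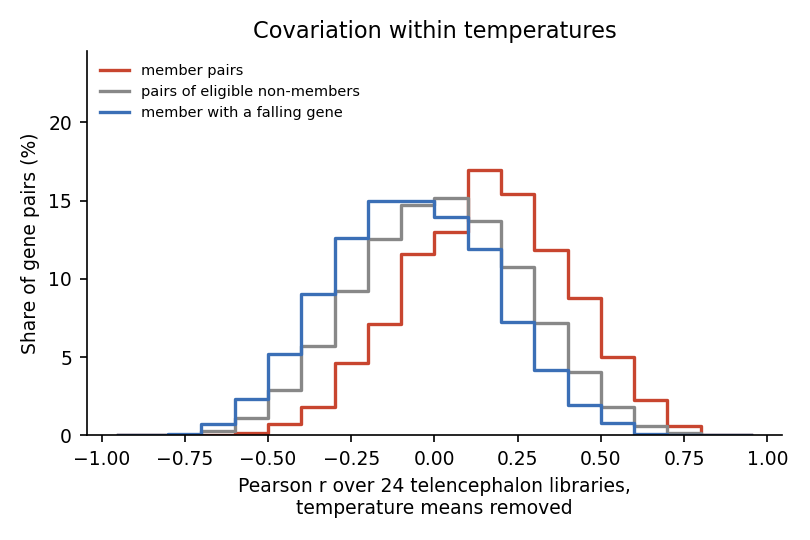
Share of gene pairs (%) by Pearson r over the 24 telencephalon libraries with temperature means removed, in bins of 0.1, for member pairs (red), pairs of eligible genes that are no members (grey) and pairs of a member with one of the 100 eligible genes with the lowest r (blue). The member pairs are shifted to the right, which the choice of genes can favour, with a median of 0.16, against 0.02 for the grey line and -0.07 for the blue line.

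The testis of the same birds gave a measure of the temperature response that the rule had not used. Of the 100 members, 99 passed the filter on low counts there, and the member left out (rank 67) averaged 0.372 CPM. None was called between any pair of temperatures in edgeR, where no gene at all was called (0% of 14149), and DESeq2 called none either. At 43 against 27 °C the members had a median testis log2 fold change of -0.02, with 44 higher and 55 lower, against a median of -0.01 and 51.6% lower among all genes tested. The other eligible genes had a median of -0.04, with 56.2% lower. At an unadjusted p under 0.05 in edgeR there were 2 members, 1 higher and 1 lower, against 6.17% of all genes. The smallest edgeR adjusted p of a member was 0.805. No member was without overlap between 43 and 27 °C in the testis, against 0.00707% of all genes with 43 °C above and 0.0495% with 43 °C below. The SE of a member's log2 fold change in the testis had a median of 0.231, as large as the median telencephalon log2 fold change of 0.23. For 96 of the 99 members the telencephalon value was under 2 SE of the testis value, so an equal change in the testis was not detectable gene by gene. Over the 99 members, the fold changes in both tissues had a Spearman rho of -0.07.

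The comparisons of the testis with 35 °C gave small differences, and they share the birds at 35 °C. At 43 against 35 °C the median log2 fold change was -0.09 (62 members lower, 37 higher), with 0.01 over all genes, of which 48.5% were lower. The other eligible genes had a median of -0.005, with 50.7% lower. At an unadjusted p under 0.05 there were 7 members in edgeR, each lower at 43 °C, against 7.94% of all genes in either direction and 4.2% in this one. At 27 against 35 °C the median was -0.07 (60 lower, 39 higher), with 0.00 over all genes. The other eligible genes had a median of 0.007 there, with 48.4% lower. In this comparison 5 members had an unadjusted p under 0.05 in edgeR, against 4.33% of all genes. Without T154, T156 and T157 the count at 43 against 35 °C was 12, where 9.64% of all genes lay below that p, and no member was called. The bird scores in the testis had lowest, median and highest values of -0.22, 0.02 and 0.14 at 27 °C, of -0.12, 0.06 and 0.20 at 35 °C, and of -0.26, -0.09 and 0.11 at 43 °C. All 3 groups overlapped, and at 35 °C the overlap with the low birds rested on T154. Without it the birds at 35 °C ran from 0.06 to 0.20, and 5 of 7 birds at 27 °C and 5 of 7 at 43 °C lay below all of them. This pattern was seen after the scores were known and was not tested. The same score over the other eligible genes had lowest, median and highest values of -0.06, -0.01 and 0.14 at 27 °C. It had -0.10, -0.004 and 0.16 at 35 °C, where T154 was again the lowest bird, and -0.22, -0.08 and 0.15 at 43 °C. The group means of this second score were 0.016, 0.016 and -0.035 at 27, 35 and 43 °C, against -0.010, 0.069 and -0.068 for the members. By this score, the other eligible genes shared the low T154 and the lower mean at 43 °C, but not the lower mean at 27 than at 35 °C. Both scores used column totals without TMM scaling. In the TMM-scaled edgeR fit the other eligible genes had a median of -0.005 at 43 against 35 °C and of -0.04 at 43 against 27 °C. Their lower score at 43 than at 35 °C thus had little counterpart in that fit, and the cause was not tested. This difference between the scores was not tested.

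Single members show the sizes involved. The member at rank 50 had the smallest p at 43 against 35 °C in the testis. Its lowest, median and highest levels there were 0.682, 1.54 and 2.38 CPM at 27 °C, 1.46, 1.94 and 3.15 CPM at 35 °C, and 0.518, 0.918 and 2.07 CPM at 43 °C. The birds at 35 °C were the highest group, and the ranges overlapped. The edgeR estimate was -0.86 ± 0.29 log2 units (SE, adjusted p = 0.560). ENSTGUG00000000403, highest in r in the telencephalon, had -0.79 ± 0.33 log2 units in the testis between the same groups (SE, edgeR adjusted p = 0.579). The abundant member at rank 22 had testis means of 82.9 ± 11.7, 103 ± 16.1 and 84.5 ± 9.45 CPM at 27, 35 and 43 °C (SD, n = 7, 8 and 7), the 35 °C birds being the highest group. In the telencephalon the same member stood at 501 ± 36.5, 536 ± 55.2 and 586 ± 67.9 CPM at 27, 35 and 43 °C (SD, n = 8 each).

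The members lower in the testis at 43 than at 27 °C with the smallest p were ENSTGUG00000010241 and ENSTGUG00000015931. The first was at 41.5 to 65.2 CPM at 27 °C (median 45.7), at 37.5 to 53.4 CPM at 35 °C (median 44.7) and at 27.9 to 59.8 CPM at 43 °C (median 38.3). Most birds at 43 °C were low, while T136 reached 59.8 CPM, and the ranges overlapped. The edgeR estimate was -0.27 ± 0.13 log2 units (SE, unadjusted p = 0.0445, adjusted p = 0.805). In the telencephalon the gene, at rank 14, had means of 587 ± 66.9, 646 ± 56.8 and 700.2 ± 73.4 CPM at 27, 35 and 43 °C (SD, n = 8 each), the reverse order. ENSTGUG00000015931, at rank 93, was scarce in both tissues, with testis means of 1.51 ± 0.605 and 0.964 ± 0.424 CPM at 27 and 43 °C (SD, n = 7 each) and an edgeR estimate of -0.62 ± 0.32 log2 units (SE, adjusted p = 0.805). The member with the smallest p among those higher in the testis, at rank 61, had means of 6.85 ± 2.101 and 9.68 ± 3.94 CPM (SD, n = 7 each) and an edgeR estimate of 0.54 ± 0.25 log2 units (SE, adjusted p = 0.805).

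**Figure D5:**
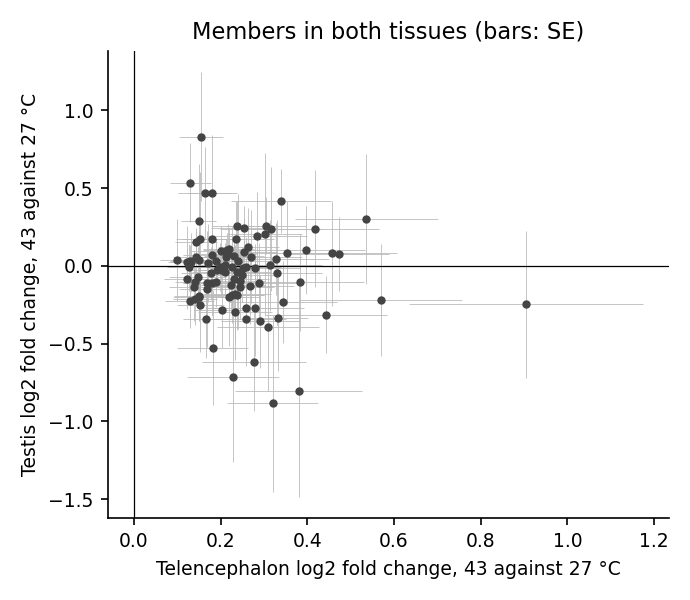
Testis log2 fold change (vertical axis) against telencephalon log2 fold change (horizontal axis) at 43 against 27 °C from edgeR for the 99 members tested in both tissues, with SE as bars. All points lie right of 0 on the horizontal axis, as the choice of genes favours, and they spread on both sides of 0 in the testis, 44 above and 55 below.

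Within a bird, a member's level in the telencephalon said little about its level in the testis. With temperature means removed in each tissue, the correlation over the 22 birds with both tissues had a median of 0.10 over the 99 members and was above 0 in 67.7%. The other eligible genes had a median of 0.09 with 62.6% above 0, and all 12523 genes tested in both tissues had 0.14 with 69.2% above 0. The members' values ran from -0.45, for ENSTGUG00000000403, to 0.64, for the member at rank 45. In the testis, pairs of members had a median correlation within temperatures of 0.10, against 0.08 for the other eligible genes, which compares with 0.16 and 0.02 in the telencephalon. This difference between tissues was not tested, and the rule, which used telencephalon levels over temperature, can favour covariation in the telencephalon.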

How the data were processed

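Per the labels' protocols, mRNA libraries kept strand. Per the submitters' processing notes, the tools were HISAT2 2.1.0, featureCounts 1.6.4, Trimmomatic 0.36 and CASAVA. Not given in the sources used here: tool settings, genome build and strand option. Genes that overlap or have a close copy are therefore uncertain. The authors deposited raw counts per gene for the telencephalon. The deposited testis table holds whole numbers in a paired-end and a single-end column per bird, handled like expected counts (rounding changed none) and summed to 1 replicate.

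CPM for levels and membership used column totals. Counts were filtered with filterByExpr (minimum count 10, minimum total 15), scaled by TMM and tested per tissue over all 3 temperatures with the quasi-likelihood F test of edgeR 4.0.16 (robust, R 4.3.3). A call is an adjusted p under 0.05 (Benjamini-Hochberg, over all genes tested). SE came from the F statistic. DESeq2 1.42.0 was an alternative. The fits and the rule were tested on simulated data with changes larger than the members' median increase, in genes that varied independently. Recovery of changes as small as that median was not tested. Replicates are different birds. Each bird was at 1 temperature, and P-values set the difference between temperatures against the spread between birds.

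The members, lists and tests were chosen with earlier results of these data known. Identifiers were printed for the 2 members with the highest r and the 2 with the smallest p among those lower in the testis at 43 against 27 °C; other members mentioned by rank were picked after their values were seen. Lists of marker, heat shock and other genes were written but need symbols and were not used.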

Additional observations from a re-analysis of the deposited data

Results flagged for a closer look

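In 3 of 36 groups examined, a single library lay far from the others of its group, where chance gives about 1 in 20 (1.8 groups). All 3 were testis groups. The mean deviation of the members at 35 °C was -0.116 log2 units in T154, against 0.0568 to 0.197 in the other 7 birds, and T154 is 1 of the 3 birds with a deeper paired-end column. Over the other eligible genes T154 was also the lowest of these birds, at -0.096 log2 units, against -0.0455 to 0.159. ENSTGUG00000008733 was at 39.6 CPM in T137 at 35 °C, against 18.9 to 27.6 CPM, and this bird also had the highest telencephalon score at 35 °C. ENSTGUG00000010241 was at 59.8 CPM in T136 at 43 °C, against 27.9 to 41.4 CPM.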

How the results depend on the processing

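Over 14 results, all but 7 of the alternative values stayed within the spread used for each, or within 1.5 times a count. DESeq2 called 10 members at 43 against 27 °C and 3 at 43 against 35 °C in the telencephalon, where edgeR called none; the cause was not tested. At an unadjusted p under 0.05 in the testis at 43 against 27 °C there were 2 members in edgeR, against 6.17% of all genes. They numbered 4 with DESeq2, 1 without TMM scaling and 4 with the paired-end columns alone. The share of all genes in those alternative fits is not given here, so nothing is read from these counts. At 43 against 35 °C they were 12 in place of 7 without T154, T156 and T157. The share of all genes was 9.64% there and 7.94% in the main fit. At 27 against 35 °C they were 3 in place of 5 without T142, with 3.65% of all genes there and 4.33% in the main fit. These alternatives were chosen after seeing the data, and the causes were not tested. No member was called in the testis under any of them. Chosen again, the list kept 96 members with TMM-scaled CPM, 100 with log2(CPM + 2), 82 with Spearman's rho, 97 with the paired-end columns alone, and 78 (without T156) to 98 (without T147) when 1 telencephalon library was left out. The median position of 35 °C was 0.28 with TMM-scaled CPM and 0.20 (without T137) to 0.39 (without T157) without single birds. The median correlation between members within temperatures was 0.18 with TMM-scaled CPM and 0.13 to 0.17 without single birds. The median testis log2 fold change at 43 against 27 °C lay between -0.06 and -0.02 under all alternatives run, below 0 in each. In the main fit the other eligible genes had a median of -0.04, so a value below 0 was not particular to the members. Low testis levels limit the testis results, since 44 members averaged under 5 CPM there. No paired analysis was possible because each bird was kept at 1 temperature, so the temperatures compared share no birds. The 22 birds with both tissues would allow a comparison of the temperature response between tissues within birds; it was not run, since the members were chosen by their telencephalon response.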
